A study of Mus musculus with 12 samples.

Results

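Imprinted genes are transcribed mainly from the copy inherited from 1 parent. Most lie in clusters in which a stretch of DNA methylated in the egg or the sperm, the imprinting control region, decides which parental copy is read, and long noncoding RNAs, insulators and zinc finger proteins act on that region. In the brain they are known for roles in growth, in the supply of hormones and nutrients and in neuronal differentiation, and a few, such as Ube3a, Grb10 and Igf2r, have an imprint in neurons that differs from that in other cells. The genes described here are 41 imprinted genes of the mouse, chosen by name with their cluster and their expressed parental allele. Measured values were not a criterion, but earlier results of these data were known when the genes were chosen. A probeset with a single gene symbol was found for 39 of the 41, among 20358 genes measured in all. The other 2, Mirg (a host transcript of miRNAs) and Zrsr1 (a paternally expressed splicing factor gene), are not analysed here. By the expressed allele as listed for each gene, 21 of the 39 were classed as paternal, 10 as maternal and 8 as dependent on the tissue or the transcript variant or only biased. The maternal class includes Cd81, Ascl2 and Phlda2, which are known as imprinted mainly in the placenta and could also be counted with the dependent genes. The arrays measured the total transcript of a gene, so nothing below says which allele was read.

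The cells were hippocampal neurons of RjOrl:SWISS mice, an outbred stock, dissociated from embryos of e17.5 to e18.5 and kept for 0, 1, 3, 6, 12 or 15 days in vitro (DIV) with no treatment other than 1 µM cytosine arabinoside, an inhibitor of dividing cells, added at 3 DIV. The methods give 20 h in culture for the time called 1 DIV. Each time had 2 Affymetrix Mouse Gene ST arrays, 12 in all, and the 6 arrays with the same replicate number are called culture 1 and culture 2. The methods treat the 2 replicates of a time as independent and the date of the experiment as a batch, so culture and date cannot be told apart, and the sources used here do not say whether all 6 arrays of a number came from 1 dissection. Embryo pools of an outbred stock hold several genotypes, and the dissected tissue also holds glia, vessels and meninges. Values are log2 signals normalized by RMA. A gene's value combines the more variable 50% of its probesets, and the difference from 0 DIV was tested with limma with the replicate as a block, at an adjusted p of 0.05. Errors of differences are standard errors (SE) with 2 arrays a time.

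Within a time, the 2 arrays correlated with r between 0.94 and 0.98 over all genes, and the array medians lay between 7.36 and 7.57. The median SD between the 2 arrays of a time was 0.32 for the imprinted genes, against 0.27 for all genes. Neuron markers were high throughout (mean of 9 markers 9.69 to 11.70 over the 12 arrays) and 7 of 9 were higher at 15 DIV than at 0 DIV. All 8 interneuron markers were higher at 15 DIV as well, with a median difference of 1.87. Of other cells, 6 of 9 astrocyte and 6 of 7 oligodendrocyte lineage markers were higher at 15 DIV, against 16.4% of all genes. Of 10 endothelial and mural and 10 microglia markers, 8 each were lower. So were 5 of 10 progenitor, 3 of 8 choroid plexus and 3 of 4 erythroid markers, against 8.43% of all genes. In such bulk cultures, fewer cells of a type and less RNA per cell cannot be told apart.

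More imprinted genes passed against 0 DIV with longer time in culture, and the share of all genes that were higher grew as well. At 1 DIV, 1 of 39 was higher than at 0 DIV, against 0.766% of all genes, and 0 were lower, against 0.28%. At 3 DIV, 4 were higher (all genes 4.7%) and 0 lower (1.41%). At 6 DIV, 6 were higher (9.88%) and 1 lower (3.85%), and at 12 DIV 8 were higher (15.9%) and 3 lower (8.94%). At 15 DIV, 10 of 39 (25.6%) were higher, against 16.4% of all genes, and 3 (7.69%) were lower, against 8.43%. The median difference of the 39 genes from 0 DIV did not grow in the same way. On the log2 scale it was 0.18, 0.32, 0.23 and 0.05 at 1, 3, 6 and 12 DIV. At 15 DIV it was 0.06, against 0.01 for all genes. The genes that passed at 15 DIV were a minority. The 10 higher ones differed by 0.65 (Meg3) to 3.96 (Rasgrf1) and the 3 lower ones by -0.58 (Mcts2) to -2.16 (H19). Quantile normalization gave 7 higher and 4 lower at 15 DIV and centring of the arrays 6 and 3, and without either 15 DIV array 5 were higher. Over all 6 times, 12 of 39 passed the F test, against 22% of all genes. These 12 were Rasgrf1, Impact, Peg3, Nap1l5, Cd81, H19, Igf2, Nnat, Zim1, Rtl1, Zdbf2 and Usp29.

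By expressed allele, 7 of the 21 paternally expressed genes were higher at 15 DIV and 2 lower, 2 of the 10 maternally expressed genes were higher and 1 lower, and 1 of the 8 tissue- or variant-dependent genes was higher and 0 lower. The shares of all genes were 16.4% higher and 8.43% lower. The median differences were 0.19 for the paternal, -0.20 for the maternal and 0.03 for the dependent genes. The F test was passed by 9 of the 21 paternal, 3 of the 10 maternal and 0 of the 8 dependent genes, against 22% of all genes. Cd81, which is counted with the maternal genes although its imprint is known from the placenta, is 1 of the 2 that were higher and 1 of the 3 that passed the F test. These classes were not tested against each other. Between neighbouring times 0 of the 39 passed the test at any step, against 0.177% of all genes changed either way between 1 and 3 DIV, 0.108% between 3 and 6 DIV, 0.0295% between 6 and 12 DIV and 0% between 12 and 15 DIV. At an unadjusted p under 0.05 these steps gave 4, 3, 2 and 3 of the 39 genes, against 7.9%, 10.4%, 10.1% and 4.48% of all genes.

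**Figure D1:**
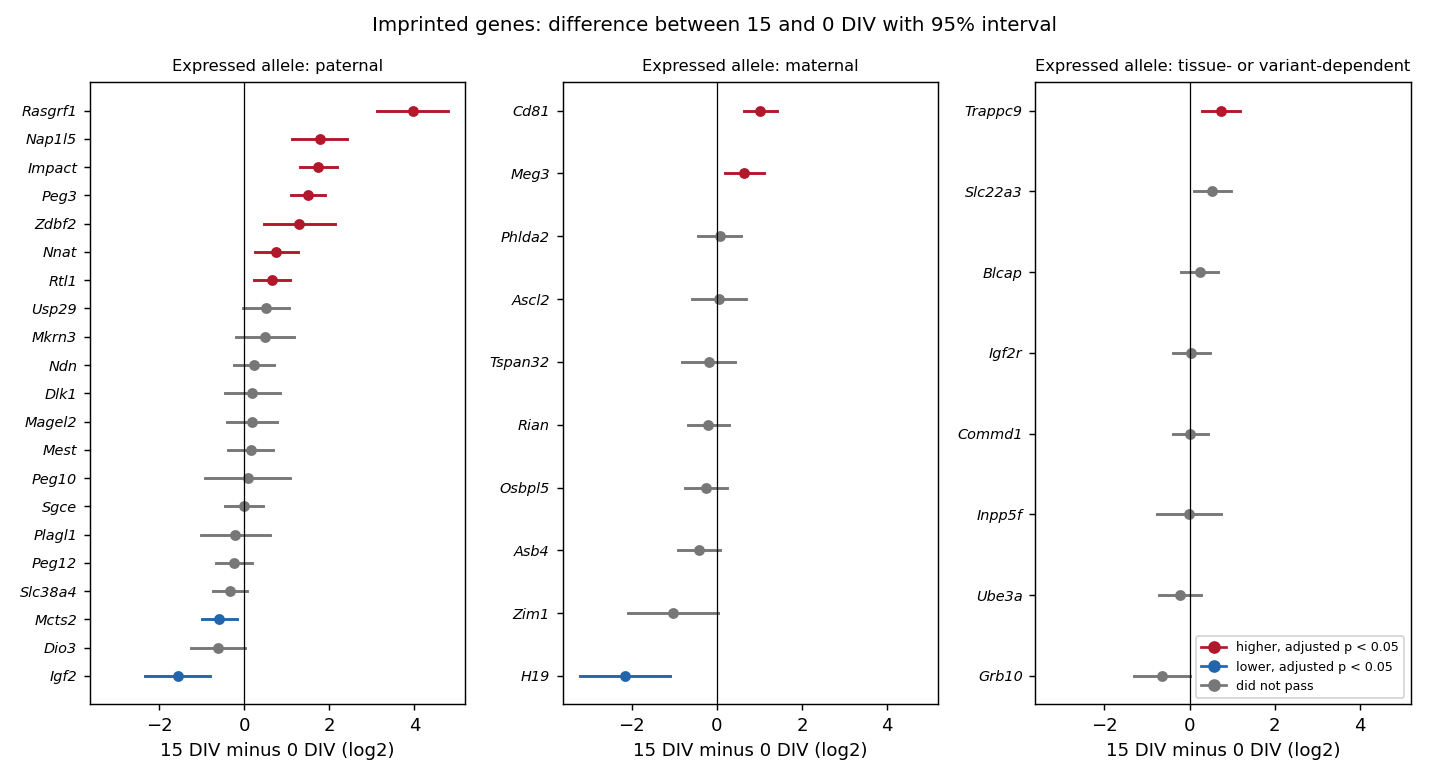
Differences between 15 and 0 DIV on the log2 scale (x axes) of the 39 imprinted genes, with 95% intervals as bars, in panels by expressed allele. Rasgrf1 stands furthest to the right at 3.96 and H19 furthest to the left at -2.16, and 10 genes in red and 3 in blue passed the test.

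Rasgrf1, a paternally expressed exchange factor that activates Ras in neurons in response to calcium, had the largest difference of the 39 genes. In culture 1 it read 6.17, 6.23, 6.46, 7.92, 10.25 and 11.06 at 0, 1, 3, 6, 12 and 15 DIV, and in culture 2 6.81, 6.38, 6.28, 7.03, 9.55 and 9.85. The values of 0 to 3 DIV overlapped and all later arrays lay above them. The difference from 0 DIV was 0.98 ± 0.37 at 6 DIV (adjusted p = 0.116), 3.41 ± 0.37 at 12 DIV (adjusted p = 0.000129) and 3.96 ± 0.37 at 15 DIV (adjusted p = 4.6e-05), a 15.6-fold higher signal. Of its 31 probesets 25 were higher at 15 DIV, with differences between 0.95 and 4.85, and none was lower. The call held under all 20 alternative settings. The difference was 4.89 in culture 1 and 3.04 in culture 2. The slope over days was 0.35 per day in culture 1 and 0.25 per day in culture 2, and the test of their difference gave an adjusted p of 0.898. No gene of the 20358 passed that test (0%), and 3 of the 39 (Osbpl5, Rasgrf1 and Ube3a) had an unadjusted p under 0.05, against 5.44% of all genes. The 250 bases before the Rasgrf1 start site in RefSeq (GRCm38.p6, chr9:89909525-89909774, plus strand) are shown for their CG dinucleotides, the substrate of DNA methylation, in capitals. They hold 21 CG, against a median of 6 over the same window of 32851 promoters.
Rasgrf1: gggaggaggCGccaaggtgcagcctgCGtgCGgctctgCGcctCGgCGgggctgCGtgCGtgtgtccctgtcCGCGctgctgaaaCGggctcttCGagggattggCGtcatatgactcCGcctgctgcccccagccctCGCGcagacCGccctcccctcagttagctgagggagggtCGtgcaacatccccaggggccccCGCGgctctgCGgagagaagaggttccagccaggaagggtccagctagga

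Impact, a paternally expressed inhibitor of the kinase GCN2 that is known as abundant in neurons, had 9.71, 10.10, 10.38, 10.91, 11.38 and 11.66 at 0, 1, 3, 6, 12 and 15 DIV in culture 1 and 9.92, 10.27, 10.37, 11.33, 11.54 and 11.47 in culture 2. All arrays of 6 DIV and later lay above those of 0 to 3 DIV, and the signal at 15 DIV was 1.75 ± 0.19 higher than at 0 DIV (3.36-fold, adjusted p = 0.000113). Of its 12 probesets 11 were higher and the other differed by -0.16. Cd81, a tetraspanin of the cell surface that is maternally expressed in the placenta, differed in small steps, with 10.78, 10.94, 10.98, 11.29, 11.44 and 11.81 in culture 1 and 10.90, 11.10, 11.33, 11.31, 11.71 and 11.91 in culture 2. Its difference at 15 DIV was 1.02 ± 0.17 (2.02-fold, adjusted p = 0.0017), with 5 of 8 probesets higher. Both calls held under all 20 alternatives. Astrocyte markers, with a higher mean at 15 DIV (10.35 and 9.63 at 15 DIV, against 7.71 and 7.88 at 0 DIV in cultures 1 and 2), moved beside these genes, and their part was not tested.

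The Peg3 domain holds Peg3 and Usp29, both paternally expressed and divided by a short shared interval, and the maternally expressed Zim1. Peg3, a large zinc finger protein, had 9.24, 10.02, 10.08, 10.47, 10.90 and 10.80 in culture 1 and 9.44, 10.14, 10.21, 10.30, 10.76 and 10.88 in culture 2. Both arrays of 0 DIV lay below all others, and the difference from 0 DIV was 0.74 ± 0.18 at 1 DIV (adjusted p = 0.0879), 0.80 at 3 DIV (adjusted p = 0.0292) and 1.50 ± 0.18 at 15 DIV (2.83-fold, adjusted p = 0.000193). The test at 15 DIV was passed by 14 of 17 probesets and under all 20 alternatives. Usp29, a ubiquitin-specific protease, had 7.57, 8.29, 8.46, 8.07, 8.62 and 7.76 in culture 1 and 7.24, 8.20, 8.25, 8.68, 8.30 and 8.07 in culture 2. It was higher than at 0 DIV at 3 DIV (0.95 ± 0.25, adjusted p = 0.0492), 6 DIV (0.97, adjusted p = 0.0264) and 12 DIV (1.06, adjusted p = 0.0104), and differed by 0.51 ± 0.25 at 15 DIV (adjusted p = 0.165). Its F test stood at the threshold (adjusted p = 0.0499) and passed in 5 of the 19 alternatives that have one.

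Zim1, a zinc finger gene, had the most uneven course of the domain. It read 7.69, 6.76, 9.07, 8.47, 8.80 and 5.93 at 0, 1, 3, 6, 12 and 15 DIV in culture 1 and 7.69, 6.69, 8.37, 8.19, 7.49 and 7.39 in culture 2. Both cultures read lower at 1 DIV than at 0 DIV, had their highest value at 3 DIV, and parted at 12 and 15 DIV. The F test was passed (adjusted p = 0.0299), while no single time passed against 0 DIV: the differences were -0.96 at 1 DIV, 1.03 at 3 DIV and -1.02 ± 0.48 at 15 DIV (adjusted p = 0.149). The last became -1.99 (adjusted p = 0.00764) without the 15 DIV array of culture 2 and -0.06 (adjusted p = 0.949) without that of culture 1. The 5 Zim1 probesets agreed in sign at 15 DIV, with differences between -1.18 and -0.53, none past the test.

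The 163 bases between the RefSeq start sites of Peg3 and Usp29 are printed because both genes, whose levels were higher than at 0 DIV at the same times of 3, 6 and 12 DIV, start from its ends. The sequence is that of the plus strand, from the Peg3 side to the Usp29 side (GRCm38.p6, chr7:6730420-6730582), with its 5 CG dinucleotides in capitals.
Peg3-Usp29 interval: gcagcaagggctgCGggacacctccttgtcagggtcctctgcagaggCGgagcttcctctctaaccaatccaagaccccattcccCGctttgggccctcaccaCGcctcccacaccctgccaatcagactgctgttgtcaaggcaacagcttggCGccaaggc

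Igf2 and H19 lie next to each other and share enhancers. Igf2, a growth factor of the fetus that is paternally expressed but is known to be read from both copies in choroid plexus and meninges, and H19, a maternally expressed long noncoding RNA, were the 2 genes with the largest falls. Igf2 had 8.71, 7.66, 7.53, 6.80, 6.78 and 7.29 at 0, 1, 3, 6, 12 and 15 DIV in culture 1 and 8.62, 8.37, 8.49, 8.06, 6.98 and 6.93 in culture 2. At 0 DIV the SD between the cultures was 0.06, culture 1 was lower than culture 2 from 1 to 6 DIV, and both were low at 12 and 15 DIV. The difference from 0 DIV was -1.23 ± 0.35 at 6 DIV (adjusted p = 0.0389), -1.78 ± 0.35 at 12 DIV (adjusted p = 0.00387) and -1.56 ± 0.35 at 15 DIV (0.34-fold, adjusted p = 0.0075). It missed the threshold at 15 DIV without the 0 DIV array of culture 1 (adjusted p = 0.092) and without the 15 DIV array of culture 2 (adjusted p = 0.0895). With all 11 probesets in place of the more variable ones it was -0.71 at 6 DIV (adjusted p = 0.0946, not passing) and -1.01 at 15 DIV (adjusted p = 0.0152), and 1 of the 11 passed on its own, at -2.48.

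H19 had 9.71, 9.12, 9.05, 8.41, 6.31 and 7.31 in culture 1 and 9.10, 8.33, 7.61, 7.32, 7.52 and 7.18 in culture 2. All arrays of 12 and 15 DIV lay below both arrays of 0 DIV, and culture 2 reached its low level earlier, by 3 DIV. The difference was -2.49 ± 0.48 at 12 DIV (adjusted p = 0.00385) and -2.16 ± 0.48 at 15 DIV (0.22-fold, adjusted p = 0.00779), with 3 of 7 probesets lower. Another probeset, at 6.83 and 6.46 at 15 DIV and 6.45 and 6.43 at 0 DIV, differed by 0.20. Without the 0 DIV or the 15 DIV array of culture 1 the adjusted p was 0.0637 or 0.0802. Without the 0 DIV array of culture 1, none of the 39 genes was lower at 15 DIV.

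Cells that express both genes strongly in the embryo were followed by their markers. Of 8 choroid plexus markers 3 were lower at 15 DIV, among them the defining transporter Ttr (8.17 at 15 DIV and 10.33 at 0 DIV, difference -2.16, adjusted p = 0.000158), and the mean of the 8 was 6.25 and 6.43 at 15 DIV against 6.78 and 7.05 at 0 DIV in cultures 1 and 2. Endothelial and mural markers had fallen by 1 DIV, with 4 of 10 lower, and their mean was 6.22 and 6.12 at 15 DIV against 7.34 and 7.22 at 0 DIV. Of the 12 fibroblast and meningeal markers 4 were higher at 15 DIV, namely Thy1 (3.70), Dcn (2.30), Col6a1 (2.17) and Twist1 (0.76), and 1 was lower, Pdgfrb (-1.07). The other 7, the collagens Col1a1, Col1a2 and Col3a1 among them (-0.43, -0.13 and -0.21), did not pass, and the median of the 12 was -0.06. Thy1 is also a surface protein of neurons. The part of these cells in the falls of Igf2 and H19 was not tested.

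Each of the 2 genes carries a miRNA hairpin, whose mature products are shown here. The arrays measured the host transcripts and not these products, so the levels of the miRNAs are not known. The sequences are those of RefSeq (GRCm38.p6, chromosome 7, minus strand), with the seed (bases 2 to 8) in capitals, and no 2 of the 4 share a seed. miR-483 lies within Igf2 (3p at chr7:142654932-142654952 and 5p at chr7:142654968-142654989) and miR-675 within H19 (3p at chr7:142577078-142577099 and 5p at chr7:142577112-142577133).
mmu-miR-483-3p: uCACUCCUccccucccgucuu
mmu-miR-483-5p: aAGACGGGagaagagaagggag
mmu-miR-675-3p: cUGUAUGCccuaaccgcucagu
mmu-miR-675-5p: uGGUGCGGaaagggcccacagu

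The 13 genes listed for the IGF axis moved in both directions at 15 DIV. Of these, 6 were higher and 6 lower, against 16.4% and 8.43% of all genes. The RNA-binding proteins Igf2bp1 (-3.31, adjusted p = 8.15e-06), Igf2bp2 (-2.73) and Igf2bp3 (-1.39), which bind Igf2 mRNA among many others, and the receptor Igf1r (-1.54) were lower. The secreted binding proteins Igfbp3 (2.21, adjusted p = 0.000105) and Igfbp4 (1.75) and the ligand Igf1 (1.22) were higher. Igf2r, the imprinted receptor that clears IGF2 and is read from both copies in neurons, averaged 8.93 ± 0.37 at 15 DIV and 8.89 ± 0.01 at 0 DIV (SD, n = 2), a difference of 0.04 with a 95% interval of -0.38 to 0.47, and 0 of its 48 probesets passed. Slc22a3, a cation transporter gene beside it, had a low signal (means of 6.50 at 15 DIV and 5.97 at 0 DIV) and differed by 0.53 ± 0.20 (adjusted p = 0.0717).

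Grb10 codes for an adaptor that restrains insulin and IGF receptors. It is maternally expressed in most tissues and paternally, from other promoters, in neurons. As a gene it averaged 8.93 ± 0.22 at 15 DIV and 9.57 ± 0.01 at 0 DIV (SD, n = 2), a difference of -0.65 ± 0.30 that did not pass (adjusted p = 0.149). All 21 probesets had negative differences, between -2.74 and -0.22, and 2 passed. The probeset with -2.74 (adjusted p = 0.00281) had 10.17, 9.68, 9.14, 8.54, 8.49 and 7.88 at 0, 1, 3, 6, 12 and 15 DIV in culture 1 and 10.51, 10.19, 9.27, 8.68, 7.83 and 7.33 in culture 2. In both cultures it was lower at each time than at the time before, while the median over the 21 was -0.51. A fall that is larger in 1 probeset than in the others is a statement about that stretch of the transcripts, and which stretch it is was not determined here.

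In the Dlk1-Dio3 cluster, the paternal protein genes Dlk1, Rtl1 and Dio3 lie beside the maternal noncoding genes Meg3, Rian and Mirg. Meg3, a long noncoding RNA that was the brightest of the cluster, had 11.54, 11.61, 11.65, 12.05, 11.95 and 12.23 in culture 1 and 11.70, 11.99, 12.23, 11.88, 12.17 and 12.30 in culture 2. It was 0.65 ± 0.21 higher at 15 DIV (1.56-fold, adjusted p = 0.0423), a call that held in 10 of 20 alternatives and rested on 1 of 5 probesets, which had 12.23 and 12.30 at 15 DIV and 11.13 and 10.96 at 0 DIV. With all 5 probesets the difference was 0.44 (adjusted p = 0.051). Rian, the host of small nucleolar RNAs, had 9.98 and 10.21 at 15 DIV against 9.96 and 10.63 at 0 DIV in cultures 1 and 2, a difference of -0.20 ± 0.22 (adjusted p = 0.545).

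Rtl1, a gene derived from a retrotransposon, had 6.42, 7.37, 7.35, 6.79, 7.07 and 7.13 in culture 1 and 6.16, 6.95, 7.10, 6.85, 6.56 and 6.77 in culture 2. It was lowest at 0 DIV in both, and 0 of its 4 probesets passed on its own at 15 DIV. The gene value was 0.93 ± 0.19 higher at 3 DIV (adjusted p = 0.0199) and 0.66 ± 0.19 higher at 15 DIV (adjusted p = 0.0278). With all 4 probesets neither passed, with 0.40 at 3 DIV (adjusted p = 0.101) and 0.23 at 15 DIV (adjusted p = 0.253), and the 15 DIV call held in 13 of 20 alternatives. Transcripts of the opposite strand cover Rtl1, with 15 miRNA hairpins in its span in RefSeq, and after amplification as cDNA the 2 strands may not be separated by these probesets. Dlk1, a membrane ligand related to Notch ligands, averaged 7.04 ± 0.37 at 15 DIV and 6.84 ± 0.22 at 0 DIV (SD, n = 2), a difference of 0.19 ± 0.29 (adjusted p = 0.682). Dio3, the enzyme that inactivates thyroid hormone, differed by -0.62 ± 0.29 (adjusted p = 0.146), and its 4 probesets opposed each other. One was at 6.00 and 5.80 at 15 DIV against 8.81 and 7.95 at 0 DIV (-2.48, adjusted p = 0.0255), and another at 8.33 and 7.80 against 7.17 and 6.48 (1.24, adjusted p = 0.0832).

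**Figure D2:**
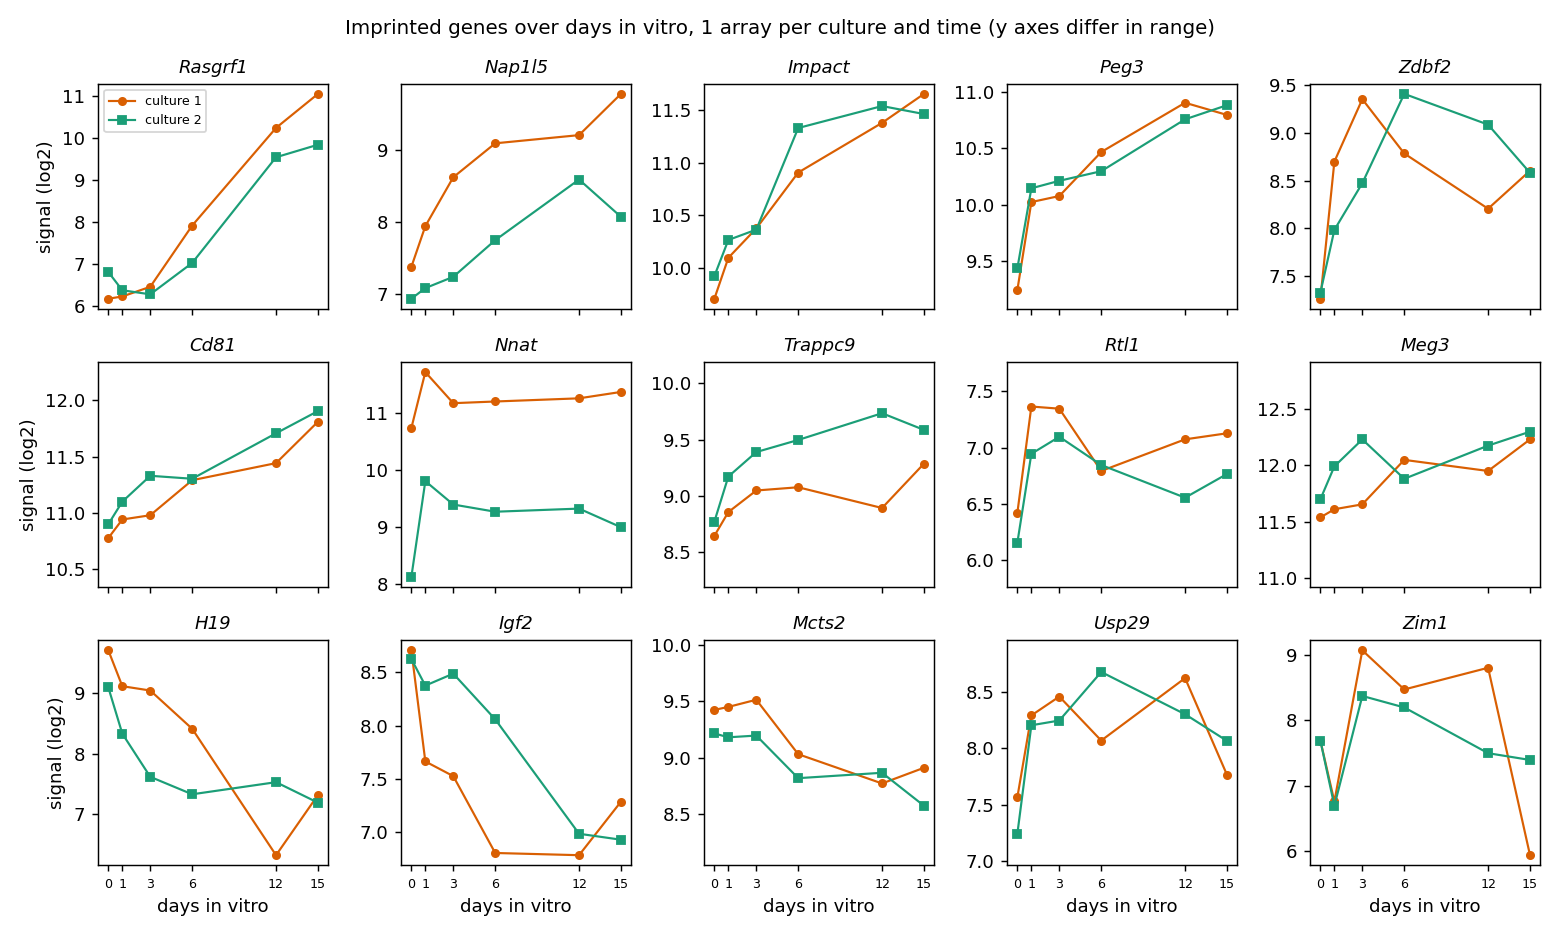
Log2 signal (y axes, ranges differ) against days in vitro (x axes) of the 13 genes that passed at 15 DIV and of Usp29 and Zim1, with 1 line for each culture. Rasgrf1 climbs after 3 DIV to 11.06 and 9.85, Igf2 and H19 fall, and in Nnat and Nap1l5 culture 1 lies above culture 2 at all 6 times.

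Nap1l5 and Nnat are paternally expressed genes that lie within an intron of another gene, Herc3 and Blcap. Nap1l5, of the nucleosome assembly protein family, had 7.37, 7.94, 8.62, 9.09, 9.21 and 9.78 in culture 1 and 6.93, 7.08, 7.23, 7.75, 8.59 and 8.07 in culture 2. Within each culture all later arrays were above that of 0 DIV, and the difference at 15 DIV was 1.78 ± 0.29 (3.42-fold, adjusted p = 0.0013), with all 3 probesets higher (1.43 to 2.20). Nnat, a proteolipid of the endoplasmic reticulum of newborn neurons, had 10.73, 11.72, 11.17, 11.20, 11.26 and 11.37 in culture 1 and 8.12, 9.80, 9.39, 9.27, 9.32 and 8.99 in culture 2. It was the 1 gene of the 39 that passed at 1 DIV (1.33 ± 0.23, adjusted p = 0.0256). With all probesets Nnat did not pass there (0.84, adjusted p = 0.0689) and Peg3 did (0.70, adjusted p = 0.0211). At 15 DIV Nnat was 0.75 ± 0.23 higher than at 0 DIV (adjusted p = 0.0339), and 0 of its 4 probesets passed on its own. Without the replicate block the adjusted p at 15 DIV was 0.0726 for Nap1l5 and 0.704 for Nnat. With all 4 Nnat probesets the difference at 15 DIV was 0.41 (adjusted p = 0.18), and the Nnat call held in 9 of 20 alternatives. Blcap had 10.48 and 10.29 at 15 DIV and 10.15 and 10.15 at 0 DIV, and did not pass (0.23 ± 0.19, adjusted p = 0.421).

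The cultures differed in both genes at all 6 times. Over the 6 times Nnat was 2.09 ± 0.13 higher in culture 1 than in culture 2 (4.26-fold, adjusted p = 2.4e-05) and Nap1l5 1.06 ± 0.17 (2.09-fold, adjusted p = 0.00914). Commd1, a gene of copper and endosome handling that hosts Zrsr1, was 0.47 ± 0.11 higher (adjusted p = 0.0286), also at 6 of 6 times, but with all probesets did not pass (0.27, adjusted p = 0.114). Mest, an alpha/beta hydrolase family gene, was lower in culture 1 at 6 of 6 times (-0.84 ± 0.14, adjusted p = 0.0101), with values from 9.65 to 10.79 in culture 1 and from 10.50 to 11.48 in culture 2. Plagl1, a zinc finger transcription factor, was lower at 5 of 6 times (-0.80 ± 0.21, adjusted p = 0.0464), but with all probesets did not pass (-0.53, adjusted p = 0.0867). So 3 of the 39 genes were higher in culture 1, against 5.01% of all genes, and 2 lower, against 2.63%. Of 9 astrocyte markers 3 were higher in culture 1, with a median difference of 0.81 over the list. Of 10 progenitor markers 2 were higher, Sox2 (1.16, adjusted p = 0.00335) and Mki67 (0.68, adjusted p = 0.0393), with a median of 0.48. Of 8 choroid plexus markers 1 was lower, Ttr (-0.98, adjusted p = 0.00689), with a median of -0.18. The part of cell makeup in these differences was not tested.

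Single probesets divided the culture differences of Nnat and Nap1l5. Of the 4 Nnat probesets, probeset 3 averaged 10.53 in culture 1 and 7.88 in culture 2 (difference 2.65 ± 0.18, adjusted p = 0.00139) and probeset 1 11.95 and 10.42 (1.54 ± 0.15, adjusted p = 0.00609). Probeset 2 averaged 10.18 in culture 1 and 9.88 in culture 2, and probeset 4, the brightest, 12.72 and 12.91 (-0.18 ± 0.12, adjusted p = 0.404). The choice of the more variable 50% of the probesets took probesets 1 and 3 and left out probesets 2 and 4, so the 2.09 of the gene value became 0.98 (adjusted p = 0.00431) with all 4. In Nap1l5 one probeset averaged 8.32 in culture 1 and 6.69 in culture 2 (1.62 ± 0.22, adjusted p = 0.0206), while the brightest averaged 10.48 and 10.45 (0.02 ± 0.16). That brightest Nap1l5 probeset was at 11.21 and 11.08 at 15 DIV and 8.99 and 8.90 at 0 DIV in cultures 1 and 2. It rose by 2.20 ± 0.28 (adjusted p = 0.00349). In Mest 12 of the 13 probesets had negative differences, none past the test (smallest adjusted p = 0.0524). Those of its gene value differed by -0.61 to -1.64.

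**Figure D3:**
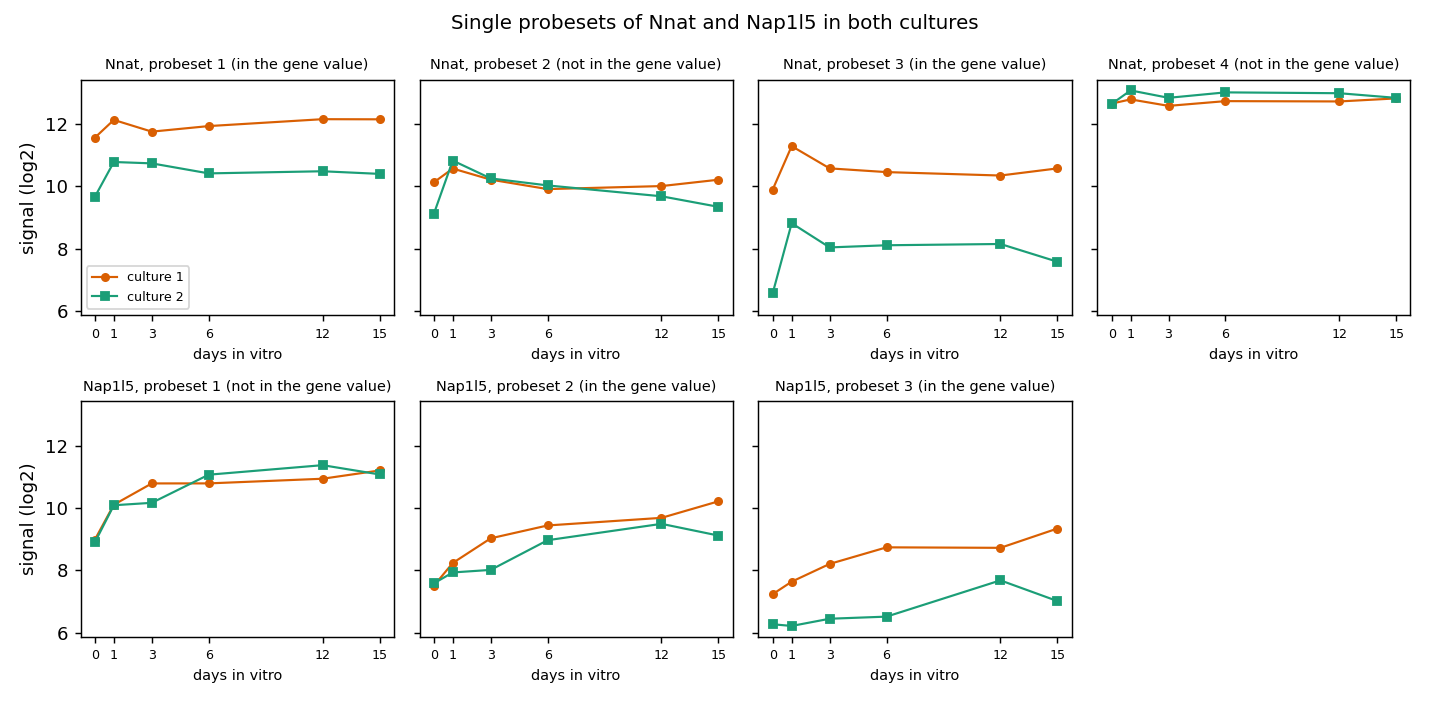
Log2 signal (y axes, shared) against days in vitro (x axes) of the 4 probesets of Nnat and the 3 of Nap1l5, with 1 line for each culture. The cultures lie apart in Nnat probesets 1 and 3 (10.53 against 7.88 on average in probeset 3) and run close together in probeset 4.

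The 250 bases before the Nap1l5 start site (GRCm38.p6, chr6:58907127-58907376, minus strand) are printed because they hold TGCCGC, the hexamer bound by ZFP57 when methylated, which keeps imprints in the embryo. They hold 10 CG, in capitals. Searched on both strands, and as the only motif, the hexamer was in this window for 8.7% of the 32851 RefSeq promoters and for 9 of the 49 windows (18.4%) of the 35 imprinted genes with a promoter in the table. These 9 windows belong to 8 genes, Mcts2, Meg3, Mest, Nap1l5, Osbpl5, Plagl1, Zdbf2 and Zim1. Mest is counted with overlapping windows that start at chr6:30737800 and chr6:30737803. The hexamer holds a CG, and the windows of the imprinted genes had a median of 10 CG, against 6 over all promoters. The shares are not matched for CG, so they do not show an excess of the hexamer itself. A match is a description of these letters and not a binding site.
Nap1l5: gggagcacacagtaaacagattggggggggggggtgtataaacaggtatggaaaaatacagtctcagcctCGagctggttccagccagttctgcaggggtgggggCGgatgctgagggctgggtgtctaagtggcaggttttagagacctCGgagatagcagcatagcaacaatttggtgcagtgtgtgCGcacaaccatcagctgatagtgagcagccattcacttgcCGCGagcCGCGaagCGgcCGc

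Of the remaining genes that passed, Zdbf2, a paternally expressed zinc finger gene known for its part in postnatal growth through the hypothalamus, had 7.26, 8.70, 9.35, 8.78, 8.21 and 8.60 in culture 1 and 7.33, 7.98, 8.47, 9.41, 9.09 and 8.58 in culture 2. Both arrays of 0 DIV lay below all others, and the peak was at 3 DIV in culture 1 and at 6 DIV in culture 2. The difference was 1.80 ± 0.38 at 6 DIV (3.49-fold, adjusted p = 0.0103) and 1.30 ± 0.38 at 15 DIV (adjusted p = 0.0284). At 15 DIV 0 of its 3 probesets passed on its own, and with all 3 the difference was 0.86 (adjusted p = 0.0469). The 15 DIV call was lost in 4 of 20 alternatives, those without either array of 0 or 15 DIV (adjusted p between 0.102 and 0.141). Trappc9, a subunit of the vesicle-tethering TRAPP complex with maternal bias in brain, had 9.29 and 9.59 at 15 DIV and 8.65 and 8.77 at 0 DIV in cultures 1 and 2 (0.73 ± 0.20, adjusted p = 0.0229), and 2 of its 26 probesets were higher. Its F test did not pass (adjusted p = 0.134), and the 15 DIV call held in 14 of 20 alternatives. Mcts2, an intronless copy of a translation factor gene within H13, had 8.91 and 8.57 at 15 DIV against 9.42 and 9.22 at 0 DIV. It differed by -0.58 ± 0.18 (adjusted p = 0.0395) on its single probeset, which did not pass among probesets, and the call held in 10 of 20 alternatives.

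The Peg10-Sgce cluster showed an early change that did not pass. Peg10, a gene derived from a retrotransposon, had 8.12, 9.40, 8.65, 7.84, 7.81 and 8.44 in culture 1 and 7.86, 10.11, 9.11, 9.64, 8.37 and 7.70 in culture 2. It was highest at 1 DIV in both, 1.77 ± 0.45 above 0 DIV (adjusted p = 0.102), and the SD between the cultures at 6 DIV was 1.27. Sgce, a sarcoglycan that shares its promoter region, differed by 0.44 ± 0.20 at 1 DIV (adjusted p = 0.296) and by -0.0025 at 15 DIV. Asb4, a maternally expressed part of ubiquitin ligases, was lower at 12 DIV, with 6.21 and 6.25 against 7.24 and 6.58 at 0 DIV (-0.68 ± 0.22, adjusted p = 0.0459), but with all probesets did not pass there (-0.31, adjusted p = 0.142). It differed by -0.41 ± 0.22 at 15 DIV (adjusted p = 0.212). Mest was 0.85 ± 0.24 above 0 DIV at 1 DIV (adjusted p = 0.126) and 0.15 ± 0.24 at 15 DIV (adjusted p = 0.686).

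In the Prader-Willi and Angelman region 0 of the 5 genes measured passed at any time. Of all genes, 16.4% were higher and 8.43% lower at 15 DIV, so 0 of 5 does not show that the region stayed constant. Ndn, a MAGE family gene of postmitotic neurons, read 10.77 to 11.69 over the 12 arrays, with 11.40 and 11.66 at 15 DIV and 11.23 and 11.34 at 0 DIV (0.24 ± 0.21, adjusted p = 0.459). Ube3a, the ubiquitin ligase of Angelman syndrome, had 9.39 and 9.76 at 15 DIV and 10.01 and 9.61 at 0 DIV (-0.23 ± 0.22, adjusted p = 0.493), with a 95% interval of -0.72 to 0.26 and 0 of 15 probesets past the test. Magel2, a MAGE family gene like Ndn, differed by 0.19 ± 0.26 and Mkrn3, a RING finger ubiquitin ligase, by 0.49 ± 0.31 (adjusted p = 0.281). With all 3 of its probesets Mkrn3 passed at 12 DIV (0.72, adjusted p = 0.0137) and at 15 DIV (0.63, adjusted p = 0.024). Peg12, a relative of the Wnt regulator FRAT, differed by -0.23 ± 0.19.

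Inpp5f, a phosphatase with 1 imprinted variant, Commd1, Plagl1, Osbpl5 (an oxysterol-binding protein) and the amino acid transporter gene Slc38a4 differed by -0.34 to 0.02, and none passed. Ascl2 and Phlda2, known from the placenta, and Tspan32 had low signals, with means of 5.65, 6.24 and 5.69 at 15 DIV against 5.60, 6.17 and 5.88 at 0 DIV, and their differences were 0.05, 0.06 and -0.19. The largest interval of these was that of Plagl1, from -1.01 to 0.61.

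Over all 409 probesets of the 39 genes, 61 were higher at 15 DIV, against 7.22% of 212138 probesets, and 8 were lower, against 2.64%. Of the 61, Rasgrf1 held 25, Peg3 14 and Impact 11. The 8 lower ones were 3 of H19, 2 of Grb10 and 1 each of Igf2, Dio3 and Plagl1. Probesets of 1 gene share its transcripts and arrays and are not replicates.

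**Figure D4:**
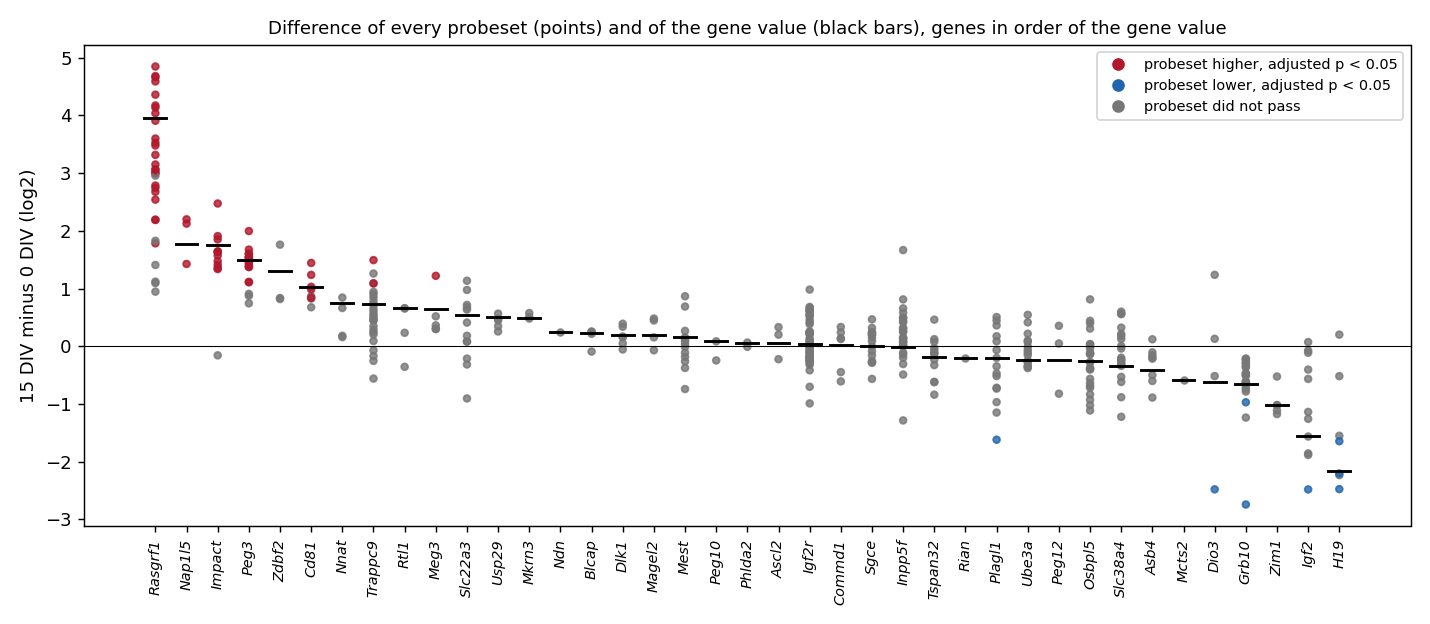
Difference between 15 and 0 DIV (y axis, log2) of each of 409 probesets as points and of the gene value as a black bar, for the 39 imprinted genes along the x axis in order of the gene value. Nearly all Rasgrf1, Peg3, Impact and Nap1l5 points lie above 0, while Grb10 and Dio3 each hold a probeset far below the others, at -2.74 and -2.48.

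Genes of imprints and of DNA methylation were measured as a list of 16, which includes Tet1, Tet2 and Tet3. Of the 16, 9 were lower at 15 DIV, Tet3 among them (-0.84, adjusted p = 0.00538), against 8.43% of all genes. The list held 1 higher gene, against 16.4% of all genes. Its median difference was -0.64, against 0.01 for all genes. Zfp57, the zinc finger protein that recognizes the methylated hexamer, averaged 9.34 at 15 DIV and 10.78 at 0 DIV (-1.44 ± 0.19, adjusted p = 0.000317). Its partner Trim28 (-0.68, adjusted p = 0.0169), the insulator protein Ctcf that binds the Igf2-H19 control region (-0.95, adjusted p = 0.00329), the maintenance methyltransferase Dnmt1 (-0.71, adjusted p = 0.0189) and Smchd1 (-1.17, adjusted p = 0.00257) were lower as well. Dnmt3a, the de novo methyltransferase of neurons, was higher (1.13 ± 0.19, adjusted p = 0.00139). Of 10 progenitor markers 5 were lower at 15 DIV, while the proliferation markers Mki67 (-0.41, adjusted p = 0.351) and Top2a (-0.45, adjusted p = 0.378) did not pass, and the part of such cells in these differences was not tested.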

How the data were processed

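The deposited values are log2 signals of 241576 probesets, which the authors background-corrected and normalized by RMA (version not given in the sources used here). For each array 25 ng of total RNA had been amplified as cDNA. The labels and the methods name different labelling kits. Probesets with 1 gene symbol (212138) were used, 4672 with several and 24766 with none were left out, and 2743 outdated symbols were updated. As in the methods, the 50% most variable probesets of a gene were combined by median polish, giving 20358 genes, 2257 of them from 1 probeset. That choice uses the same arrays as the tests and favours probesets that differ, so values with all probesets are given where they end a call of a gene named in the report.

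Each gene was fitted with limma 3.58.1 (R 4.3.3) on the 6 times and a replicate block (5 residual and 5.64 prior degrees of freedom), after the batch term of the methods. All adjusted p-values are limma's, with Benjamini-Hochberg adjustment over all genes or probesets, at 0.05. Deviations from the time means of the same replicate number correlated at 0.11 to 0.46 (median 0.30, 15 pairs of times), so the numbers were taken to pair the arrays. With the replicate as a block, p-values measure the spread that remains between the replicates after their constant difference is removed, pooled over the 6 times. For Nnat the SD between the 2 arrays of 0 DIV was 1.85, while the SE of its difference at 15 DIV was 0.23. The number of replicates, 2 a time, limits the precision. The fit was tested on simulated data. Alternatives were no replicate block, all probesets, the mean of the selected probesets, quantile normalization, median centring, a filter that drops the dimmest genes, limma's trend and robust options, the 0 and 15 DIV arrays alone, and leaving out each array.

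The members and the gene lists were chosen with earlier results of these data known. Every member is accounted for. Values of each array are given for those passing the F test or at 15 DIV and for cluster partners, and up to 4 genes with the largest change are named of other lists, plus genes chosen after their values were seen. Sequences and their positions come from RefSeq (GRCm38.p6). The probesets carry no positions. Figures were drawn with Python 3.11.15 and matplotlib 3.10.9.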

Additional observations from a re-analysis of the deposited data

How the results depend on the processing

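Without the replicate block, 0 genes were higher at 1 DIV, 1 at 3 DIV and 5 at 15 DIV, 0 were lower at 6 DIV, 7 passed the F test, and 3 probesets were lower at 15 DIV. With all probesets 1 gene was lower at 3 DIV, and with the mean of the selected probesets in place of median polish 2 were lower at 6 DIV. Quantile normalization gave 2 higher at 1 DIV and 2 at 3 DIV, 5 higher against 4 lower at 6 DIV, and 9 against 6 at 12 DIV. Median centring, which moved the median difference of all genes at 15 DIV to -0.15 from 0.01, gave 2 higher at 3 DIV, 4 against 2 lower at 6 DIV, 8 against 6 at 12 DIV, 6 higher at 15 DIV and 4 lower in culture 1. Dropping the dimmest genes, 3 were higher at 1 DIV, 2 lower at 6 DIV and 5 lower at 12 DIV. The intensity trend gave 3 higher at 1 DIV and 4 lower in culture 1. The 4 arrays of 0 and 15 DIV alone gave 1 higher and 0 lower in culture 1.

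Leaving out 1 array at a time (a time with 1 array then borrows the spread of the others), the higher counts ranged from 0 to 2 at 1 DIV, 0 to 5 at 3 DIV, 2 to 7 at 6 DIV, 4 to 8 at 12 DIV and 5 to 10 at 15 DIV. The lower counts ranged from 0 to 1 at 3 DIV, 0 to 2 at 6 DIV, 1 to 7 at 12 DIV and 0 to 4 at 15 DIV, the F test from 6 to 17, and the culture counts from 2 to 4 higher and 1 to 2 lower. The cause of these differences was not tested. Of the 15 genes named with a change over time, Rasgrf1, Impact, Peg3 and Cd81 passed at 15 DIV under all 20 alternatives. None of the 15 changed sign, but many of the alternatives could not change the difference between 15 and 0 DIV.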

Other observations

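Among 34 other genes reported as imprinted in some tissue, many of them in the placenta only, 30 were measured, and 10 were higher and 1 lower at 15 DIV than at 0 DIV, against 16.4% and 8.43% of all genes. The 4 largest rises were those of Gatm, an enzyme of creatine synthesis (10.53 at 15 DIV and 7.76 at 0 DIV, difference 2.77 ± 0.38, adjusted p = 0.000423 in limma), the potassium channel gene Kcnk9 (2.33, adjusted p = 0.000145), Qpct, which codes for glutaminyl cyclase (2.31, adjusted p = 6.46e-05), and the paraoxonase gene Pon2 (1.84, adjusted p = 0.000426), which lies near Asb4. Airn, the noncoding transcript that overlaps Igf2r on the opposite strand and silences it in cis outside neurons, averaged 7.24 at 15 DIV and 6.15 at 0 DIV (1.08 ± 0.30, adjusted p = 0.0227), while Igf2r differed by 0.04.

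The 1 gene that fell was Cdkn1c, a cyclin-dependent kinase inhibitor of the Kcnq1 domain. It averaged 8.00 at 15 DIV and 10.74 at 0 DIV (-2.75 ± 0.28, adjusted p = 7.44e-05), whereas Cd81 in the same domain was 1.02 higher and Kcnq1, Slc22a18 and Nap1l4 differed by 0.03, -0.13 and -0.21 without passing.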
